A study of Mus musculus with 8 samples.

Results

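The 6 mouse embryonic stem cell lines made by tetraploid nuclear transfer (tNT lines) were taken as 2 sets of 3, and lines 4 to 6 were compared with lines 1 to 3. The labels do not give this division. It was chosen from these measured values, because in an earlier analysis many of the genes that varied most among the tNT lines separated the lines in this way. All 6 of the 6 tNT lines among the 8 lines of the series are members, and the 2 lines from ordinary nuclear transfer (NT lines) serve only as an outside reference. Since the division was seen in the data, the differences between the sets are given as descriptions, with no test.

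The tNT lines 4, 5 and 6 were at passage 29, 18 and 25, where passage is the number read from the design text and stands for how often a culture was split. Lines 1, 2 and 3 were at passage 17, 19 and 25, and no passage is given for the NT lines. All 6 tNT lines are labelled tetraploid, the NT lines are labelled as not tetraploid, and every line carries the label mixed strain, so what else the lines of a set share, such as founding cells or genetic background, was not known here. Each line was measured once, on 1 Illumina bead array, and nothing in the labels says that more than 1 culture per line was used. The spread within a set is therefore the spread between single arrays of different lines. Quantile normalization gives every array the same distribution, so fewer cells of a type and less RNA per cell cannot be told apart, and total RNA per cell was not measured.

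Embryonic stem cells are taken from the inner cell mass of the blastocyst and keep themselves undifferentiated through a network of transcription factors that includes Pou5f1, Sox2 and Nanog. Nuclear transfer puts a somatic nucleus into an egg without its own nucleus, and egg factors return that nucleus to an embryonic state. In the tetraploid form used here the title of the series speaks of a pair of somatic nuclei in the same egg cytoplasm. Lines derived from different embryos can differ in genetic background, in karyotype and in the marks that reprogramming leaves.

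Of 25697 probes on the array, between 10526 and 10719 were above background in lines 4 to 6, between 10449 and 10955 in lines 1 to 3, with 10969 and 10882 in the NT lines (detection p under 0.01). The median intensity of an array lay between 106 and 122 in lines 4 to 6 and between 104 and 124 in lines 1 to 3. A probe was kept if it was above background on at least 3 of the 6 tNT arrays, which left 10764 probes, 10138 of them named, for 7570 genes. The stem cell markers were bright in both sets. Pou5f1, a factor without which the undifferentiated state is lost, had normalized log2 intensities of 12.42, 12.28 and 12.38 in lines 4 to 6, against 12.17, 12.66 and 12.08 in lines 1 to 3, a log2 difference of 0.06. Of the naive pluripotency genes 19 of the 22 with a probe were measured, 11 with higher and 8 with lower values in lines 4 to 6, and their median log2 difference was 0.08.

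A probe is called divided here if the means of the sets differ at least 2-fold (1 on the log2 scale) and the 3 values of one set all lie above the 3 of the other. By this rule 109 probes, 1.01% of those tested, were divided, for 92 named genes and 12 probes with no gene name. Of these, 74 (0.687%) were higher and 35 (0.325%) lower in lines 4 to 6. Separation alone was common. Without the demand on size, the values of the sets did not overlap for 2431 probes, 22.6% of those tested, 1153 higher and 1278 lower in lines 4 to 6. These shares belong to the contrast from which the division was chosen, so they are the background for the counts that follow and support nothing themselves. The typical probe moved little, with a median size of the difference of 0.17 over all tested probes against 1.32 over the divided ones. Only 13 divided probes reached 4-fold by their measured values, 10 higher and 3 lower, and 5 reached 8-fold, 3 higher and 2 lower. Without line 1 the count was 180 in place of 109, and without line 3 the lower probes numbered 62 in place of 35.

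Members at the edge of the rule had close values on both sides. Just inside stood Myl3 (1.00), Pgk1 (1.01) and Tmem64 (1.01), and just outside Ccno (-0.999), Apex1 (0.995) and Rsf1 (0.991). These are measured log2 differences, named for their place at the threshold, and the probes of Myl3 and Rsf1 were above background on none of lines 1 to 3. The detection filter touches the dimmest members. Among the divided probes 52 of the 74 higher and 22 of the 35 lower were above background on all 6 tNT arrays. A further 12 higher probes entered only through lines 4 to 6 and 9 lower probes only through lines 1 to 3, so a probe of this kind had to differ to be kept. The measured values of such probes enter the rule and the counts, while a difference quoted for one is a lower bound unless it is called measured. For most of these probes the bound is under 2-fold, as low as 1.48-fold for Slc10a6 among the higher and 1.15-fold for Fbxo46 among the lower ones. Their measured difference reaches 2-fold, but a true difference of that size is not shown for them. Leaving out line 2 moved 9 divided probes by over 1.5 times, all of them to under 2-fold, and leaving out any other single line moved none that far. The named ones were Sox21 by the brighter of its divided probes (0.93 without line 2), Fabp3 (0.51), Ak4 (0.54), Tmem64 (0.64), Rhox10 (-0.87), Lor (-0.61), Etv2 (-0.71) and Robo4 (-0.91).

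The largest difference belonged to Cops8, a subunit of the COP9 signalosome, the complex that takes the modifier Nedd8 off cullin ubiquitin ligases. Its intensity before normalization was 1071, 970 and 1163 in lines 4, 5 and 6, against 123, 132 and 94.8 in lines 1, 2 and 3, with 123 and 124 in the NT lines. On the normalized log2 scale it stood at 9.96 ± 0.11 in lines 4 to 6 and 4.96 ± 0.34 in lines 1 to 3 (SD, n = 3 each). The probe was not above background on any array of lines 1 to 3 or of the NT lines, so the difference is a bound, at least 23.5-fold, set as for all such bounds against the lowest signal above background on each array. Olig1, a transcription factor of the oligodendrocyte lineage, likewise measured 9.29, 9.05 and 9.04 in lines 4 to 6, against 4.55, 4.49 and 5.24 in lines 1 to 3, with 4.76 and 4.39 in the NT lines. It was at least 13.2-fold higher in lines 4 to 6 and was not above background on any of the other 5 arrays.

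Atf4, the transcription factor through which the integrated stress response raises amino acid supply and chaperone genes, measured 10.11, 9.77 and 9.83 in lines 4 to 6, against 6.16, 6.68 and 6.44 in lines 1 to 3, with 6.64 and 6.83 in the NT lines. It was above background on all 8 arrays and 11.1-fold higher in lines 4 to 6. Arl3, a small GTPase of the cilium, measured 7.98, 8.20 and 8.26 in lines 4 to 6, against 5.48, 4.81 and 5.56 in lines 1 to 3, a log2 difference of 2.86, and was above background on 2 of lines 1 to 3. The remaining increases of at least 4-fold are counted by their measured values. They were of 1700123O20Rik (as a bound at least 3.47-fold, since lines 1 to 3 were not above background) and the cell cycle regulator Rgcc (2.66 on the log2 scale). So were those of the lipoprotein component Apoa2 (measured 2.64, with only 1 of lines 1 to 3 above background) and the enzyme Uap1 that makes UDP-N-acetylglucosamine (2.52). The last were the mitochondrial import receptor subunit Tomm22 (2.40) and the glutathione peroxidase Gpx2 (2.10). Esd, an esterase that clears a formaldehyde adduct of glutathione (1.98), and Fgfr1op2 (at least 2.55-fold) completed the 12 largest named increases.

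Fewer probes were lower in lines 4 to 6, and the median size of the difference was 1.28 over the 74 higher and 1.33 over the 35 lower probes. The gene 2210409E12Rik measured 5.58, 5.95 and 5.70 in lines 4 to 6, against 10.23, 9.66 and 10.76 in lines 1 to 3, with 10.25 and 10.47 in the NT lines. It was above background on all 8 arrays and 22.2-fold lower in lines 4 to 6. Psmd8, a subunit of the regulatory particle of the proteasome, measured 7.18, 7.33 and 6.95 in lines 4 to 6, against 10.19, 10.34 and 10.18 in lines 1 to 3, with 10.28 and 10.04 in the NT lines, and was 8.46-fold lower. The third probe measured at 4-fold has no gene name, and lines 4 to 6 were not above background there (as a bound at least 2.02-fold lower). Among named genes the next were the mitochondrial ribosomal protein Mrps27 (log2 difference -1.86), the carbonic anhydrases Car4 (-1.73) and Car2 (-1.59), the guidance receptor Robo4 (-1.67), Mmrn2 (-1.67), the RNA-binding protein Rbm45 (-1.65), the DNA repair factor Ercc8 (-1.61), Clasrp (-1.56), Gm8909 (at least 2.37-fold lower) and Fjx1 (at least 1.91-fold lower). The order of lines differed among these genes. For Mrps27 the sets were clearly apart, with 5.80, 5.66 and 5.44 in lines 4 to 6, against 7.10, 7.87 and 7.52 in lines 1 to 3. For Car4 they nearly touched, with 4.68, 6.28 and 6.47 in lines 4 to 6, against 7.61, 8.48 and 6.53 in lines 1 to 3.

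**Figure D1:**
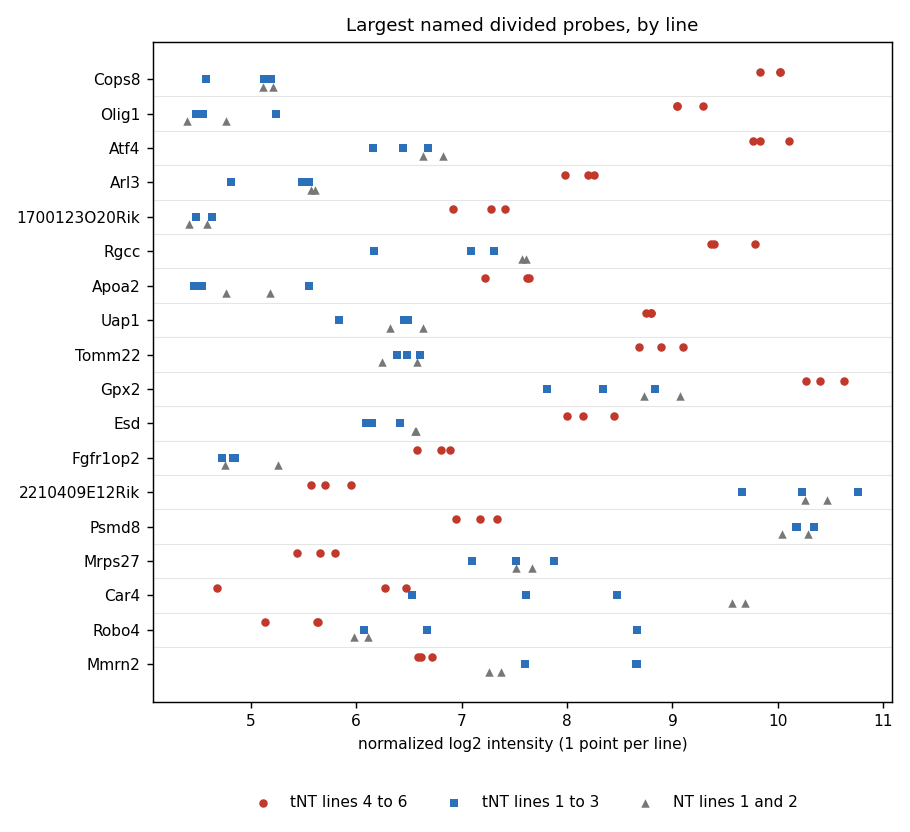
Normalized log2 intensity (horizontal axis) of the 12 largest named increases and the 6 largest named decreases in lines 4 to 6, 1 row per gene and 1 point per line, with circles for tNT lines 4 to 6, squares for tNT lines 1 to 3 and triangles for the NT lines. The rows were chosen for their differences. Cops8 lies near 10 in lines 4 to 6 and near 5 on every other array, and the NT triangles lie close to the squares in most rows. Car4, where they lie beyond the squares, and Robo4 and Mmrn2, where their mean is nearer the circles, are the exceptions among the decreases.

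Several probes of the same gene gave different answers. Of the 92 divided genes 62 have a single probe on the array, and 9 more have several probes of which 1 was bright enough to be tested. That leaves 21 genes with a divided probe and at least 1 other tested probe, out of 1901 genes with several tested probes. In 4 of the 21 every tested probe was divided the same way, in 10 all differences had the same sign but not all reached the rule, and in 7 the probes had differences of opposite sign. With detection demanded on all 6 arrays the 21 and the 4 became 12 and 3. Without line 1 they became 40 and 9, and without line 3 the 21 became 33. Of the 26 other tested probes of these genes 19 had the sign of the leading probe, 5 were divided themselves and 15 differed by less than 0.5 on the log2 scale.

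The 4 genes in which all tested probes were divided were all higher in lines 4 to 6. Sox21, a repressor of the SoxB2 family with a role in neural and epithelial fate, had 10.50, 10.44 and 10.59 in lines 4 to 6 by its brighter probe, against 9.95, 7.27 and 9.22 in lines 1 to 3. Its other tested probe gave 7.75, 7.62 and 7.52 in lines 4 to 6, against 6.66, 5.42 and 6.29 in lines 1 to 3, and both probes thus placed line 2 lowest. Without line 2 the difference of the brighter probe was 0.93 in place of 1.70, under the 2-fold rule. Pmaip1, which encodes the cell death protein Noxa, had a log2 difference of 1.22 by its brighter probe and was at least 2.63-fold higher by the other, which was above background on none of lines 1 to 3 and so had to differ to be tested. The brighter probe measured 8.96, 8.80 and 8.75 in lines 4 to 6, against 7.44, 7.88 and 7.52 in lines 1 to 3. Ciart, a repressor in the circadian clock, had differences of 1.14 and 1.09. Gstm2, a glutathione transferase, had differences of 1.29, 1.17 and 1.14 by 3 probes, but its values in line 4 (8.14 by the first probe) and line 1 (8.07) were close, and the NT lines (8.38 and 8.58) lay with lines 4 to 6. Its neighbours in gene order Gstm6 and Gstm1 had differences of 0.90 and 0.82. These paralogs are similar in sequence, and their signals cannot be told apart here.

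Genes with close agreement between probes short of the rule were Herpud1, a membrane protein of endoplasmic reticulum quality control (1.05 and 0.97), the lipoprotein receptor Vldlr (1.04, 0.84 and 0.80), Dhrs7 (1.12, 0.98 and 0.70) and Masp2 (at least 0.70 by the leading probe, for which lines 1 to 3 were not above background, and 0.78), named after their values were seen. Elsewhere the probes of a gene disagreed. For Arl3 the other tested probe, at 9.65, 9.81 and 9.67 in lines 4 to 6, against 9.44, 9.45 and 9.39 in lines 1 to 3, was brighter than the leading one and differed by 0.29. For 1700123O20Rik a brighter probe differed by -0.10, with 10.20, 10.02 and 10.09 in lines 4 to 6, against 10.23, 10.18 and 10.18 in lines 1 to 3. Fgfr1op2 had at least 1.35 by the leading probe and -0.47 by the other, Arhgap8 had 1.87, 0.20 and -0.08, and Noct, Insig2, Parp2 and Ccp110 each had a leading difference between 1.08 and 1.21 and another between -0.45 and -0.15. For these genes the array gives no single difference between the sets.

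The check by a further probe is thinnest where the differences are largest. Of the 12 named genes with a probe measured at 4-fold or more, 10 have only 1 probe on the array, Cops8, Atf4, Olig1 and Psmd8 among them. The other pair, Arl3 and 1700123O20Rik, are the genes just described whose further probe differed by less than 0.5. Why the probes of a gene differ was not tested.

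**Figure D2:**
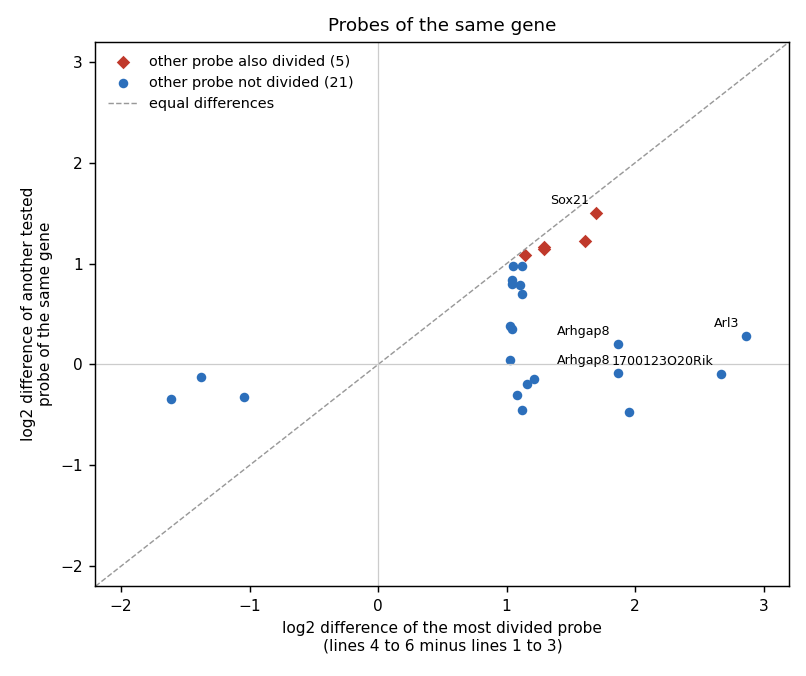
Log2 difference between lines 4 to 6 and lines 1 to 3 of the most divided probe of a gene (horizontal axis) and of each of the 26 other tested probes of the same gene (vertical axis), with a dashed line for equal differences. Differences are plotted as measured, also where a set was not above background. The leading probes were chosen for their differences. Diamonds, 5 probes that are themselves divided, lie near the line, while Arl3, 1700123O20Rik, Fgfr1op2 and Arhgap8 lie near or below 0 on the vertical axis.

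The NT lines took no part in choosing the members, so their position can be read beside the division. Both NT values were nearer the mean of lines 1 to 3 than that of lines 4 to 6 in 90 of the 109 divided probes (82.6%), nearer lines 4 to 6 in 12, and split in 7. Among the 10655 tested probes that were not divided, both NT values were nearer lines 1 to 3 in 39.0% and nearer lines 4 to 6 in 37.1%. The set means of the undivided probes mostly lie close together, so these shares are not of like probes. Without line 1 the share of 82.6% became 65.6%, without line 3 it became 69.0%, and with the authors' processed values 61.9%. On a scale where the mean of lines 4 to 6 is 1 and that of lines 1 to 3 is 0, the mean NT value had a median position of 0.07 for the higher and also for the lower probes. For the 13 probes at 4-fold the position ran from -0.04 to 0.28. Both NT values lay below all 3 values of lines 4 to 6 for 69 of the 74 higher probes, and above all 3 for 31 of the 35 lower ones.

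Exceptions went both ways. S100a13 had 7.87, 8.61 and 8.64 in lines 4 to 6, 7.65, 6.89 and 7.15 in lines 1 to 3, with 8.41 and 8.12 in the NT lines, which puts the NT lines with lines 4 to 6. Car4 had 9.69 and 9.56 in the NT lines, above both sets, and Rhox10, an X-linked homeobox gene, had 4.67 and 5.01 there, below both. S100a13 and Rhox10 were named after their values were seen.

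**Figure D3:**
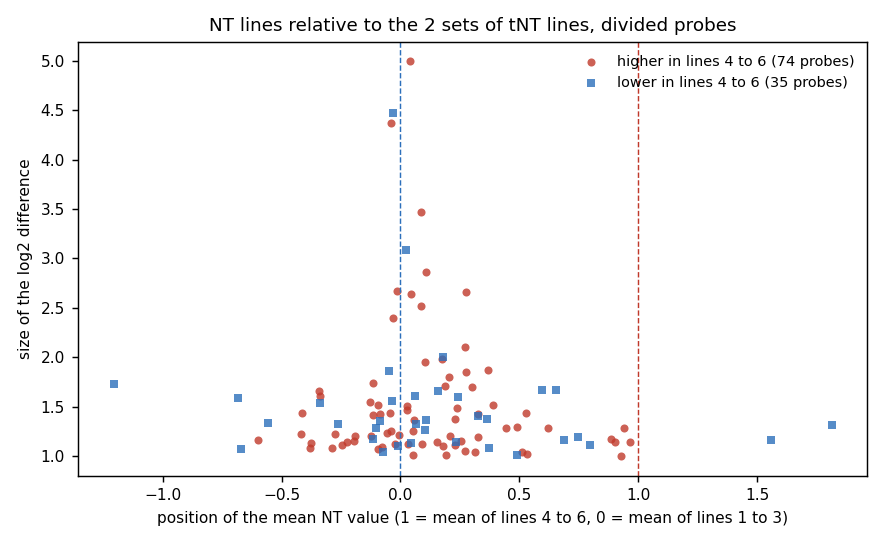
Size of the log2 difference between lines 4 to 6 and lines 1 to 3 (vertical axis) against the position of the mean NT value (horizontal axis, 1 at the mean of lines 4 to 6 and 0 at the mean of lines 1 to 3) for the 109 divided probes. Circles are the 74 probes higher in lines 4 to 6 and squares the 35 lower ones. All 13 probes above 2 on the vertical axis lie between -0.04 and 0.28, and positions spread out among the smaller differences.

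Gene lists were read by the brightest tested probe of each gene. By that choice 50 of the 7570 tested genes (0.661%) were divided higher and 28 (0.37%) divided lower in lines 4 to 6, and the median log2 difference over all tested genes was -0.01. Of all tested genes 48.0% had higher values in lines 4 to 6, and 22.6% of all tested probes did not overlap between the sets. These shares stand beside the counts of each list below. The lists for the COP9 signalosome, proteasome, Atf4 response, mitochondrial import, glutathione, hexosamine, apolipoproteins and neural factors were drawn up around genes already known to divide the lines, so their divided members are no independent evidence. Of the other members of the 9 measured COP9 signalosome genes, none was divided, and they had log2 differences between -0.10 and 0.22 next to at least 4.55 for Cops8. Of 27 proteasome genes Psmd8 alone was divided. Psmb5, a catalytic subunit, was next in size at 0.97, with 9.64, 9.54 and 9.36 in lines 4 to 6, against 8.58, 8.67 and 8.36 in lines 1 to 3, and the median of the list was -0.03. Tomm22 stood alone among 14 mitochondrial import genes, where the next member, Tomm7, had 0.33 and the median was -0.01. In these complexes a single subunit differed by over 4-fold while the other measured subunits were not divided.

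The Atf4 and integrated stress response list had 20 measured genes, 16 with higher and 4 with lower values in lines 4 to 6, and a median log2 difference of 0.20. Atf4 and Chac1 were divided. Chac1, an enzyme that degrades glutathione and a known target of Atf4, measured 10.57, 10.29 and 10.19 in lines 4 to 6, against 8.42, 8.99 and 8.54 in lines 1 to 3, with 8.81 and 9.13 in the NT lines, a 3.26-fold difference. Of the rest, 5 did not overlap between the sets though they stayed under 2-fold: the kinase-like inhibitor Trib3 (0.91), Vldlr (0.80 by its brightest probe), the serine synthesis enzyme Phgdh (0.46), the stress sensor Sesn2 (0.36) and the transcription factor Ddit3 (0.36). Of all tested probes 22.6% did not overlap, counting both directions. Trib3 had 7.33, 6.92 and 7.42 in lines 4 to 6, against 6.46, 6.12 and 6.35 in lines 1 to 3. The amino acid enzymes and synthetases of the list moved little, with Asns, Psat1, Gars and Aars overlapping between the sets, and Phgdh was at 9.66 and 9.80 in the NT lines. The range of the differences, 3.47 for Atf4 and at most 1.71 for any other member, is shown by line in the plot of this list.

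**Figure D4:**
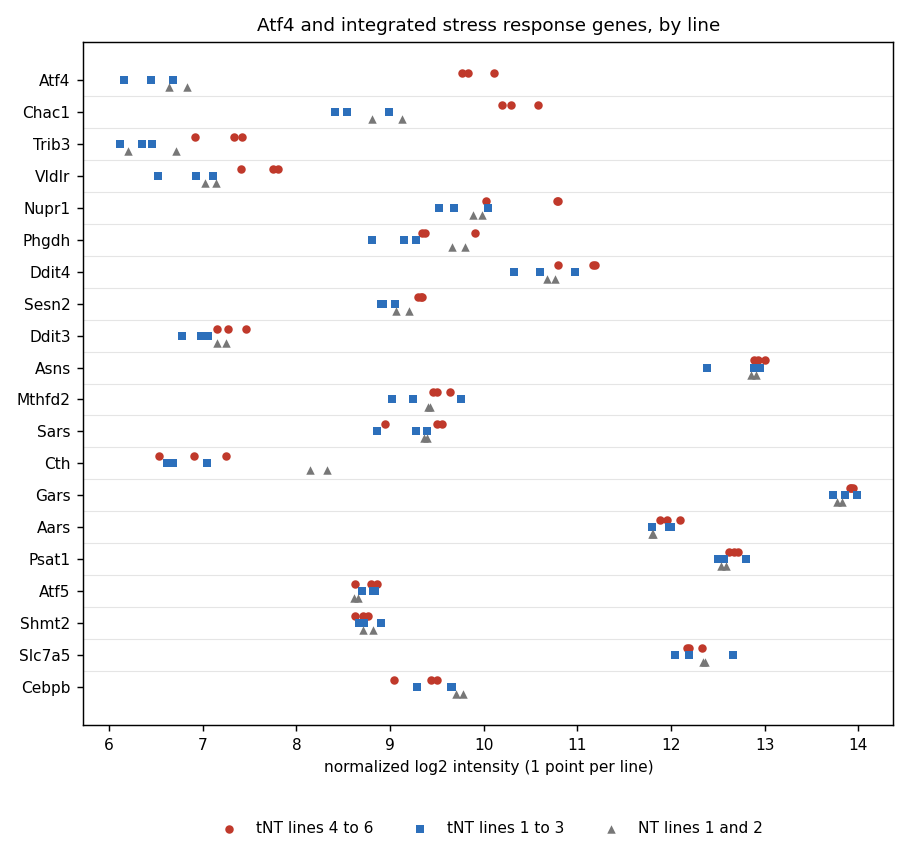
Normalized log2 intensity (horizontal axis) of the 20 measured genes of the Atf4 and integrated stress response list, ordered by difference, 1 point per line, with circles for tNT lines 4 to 6, squares for tNT lines 1 to 3 and triangles for the NT lines. Circles and squares are separated for 7 genes, Atf4 by the widest gap (3.47 between means), and overlap for the others.

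To show what such matches look like, promoters are printed for 4 genes described above that were higher in lines 4 to 6, picked after the values were seen because their windows hold a motif. The windows run from 250 bases before to 50 after the annotated start and come from RefSeq on GRCm38.p6, each written 5′ to 3′ on the gene's strand. Capitals mark TGATGNAA on either strand, the letters of the response element bound by Atf4 with C/EBP partners, in Chac1, Herpud1 and Vldlr, and CACGTG, the E-box bound by clock factors, in Ciart. The motifs were chosen after the values were seen, and a match is a description of the sequence only.
Chac1 (chr2:119350992-119351291, plus strand): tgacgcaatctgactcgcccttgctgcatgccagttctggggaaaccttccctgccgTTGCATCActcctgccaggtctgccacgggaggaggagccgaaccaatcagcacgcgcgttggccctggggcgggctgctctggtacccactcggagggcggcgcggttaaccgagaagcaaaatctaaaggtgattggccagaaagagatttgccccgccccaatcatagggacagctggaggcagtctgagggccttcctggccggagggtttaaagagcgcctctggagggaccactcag
Herpud1 (chr8:94386179-94386478, plus strand): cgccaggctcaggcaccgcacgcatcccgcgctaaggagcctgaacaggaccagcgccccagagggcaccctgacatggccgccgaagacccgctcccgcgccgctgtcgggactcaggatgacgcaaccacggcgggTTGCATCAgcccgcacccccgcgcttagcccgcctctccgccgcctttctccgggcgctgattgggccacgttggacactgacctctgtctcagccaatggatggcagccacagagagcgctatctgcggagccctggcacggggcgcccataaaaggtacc
Vldlr (chr19:27216770-27217069, plus strand): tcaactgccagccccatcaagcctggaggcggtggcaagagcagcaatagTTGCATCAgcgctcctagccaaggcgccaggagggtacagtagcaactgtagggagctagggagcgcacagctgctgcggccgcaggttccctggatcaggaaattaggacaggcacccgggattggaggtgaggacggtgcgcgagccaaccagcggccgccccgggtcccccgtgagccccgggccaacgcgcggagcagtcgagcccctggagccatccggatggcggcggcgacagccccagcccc
Ciart (chr3:95882179-95882478, minus strand): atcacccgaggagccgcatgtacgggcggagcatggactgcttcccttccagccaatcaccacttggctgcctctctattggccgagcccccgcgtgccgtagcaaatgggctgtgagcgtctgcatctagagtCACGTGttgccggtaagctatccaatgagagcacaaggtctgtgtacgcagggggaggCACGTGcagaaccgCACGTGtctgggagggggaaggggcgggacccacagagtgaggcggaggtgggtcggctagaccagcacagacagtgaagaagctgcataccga

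TGATGNAA occurred in 4.51% of the 27025 genes with a promoter entry. These genes, also the base for CACGTG below, include ones not tested here. No share over the tested genes alone was counted, so an excess among the divided genes cannot be read from these shares. It was found in 6 of the 52 genes with an entry that had a probe divided higher, Chac1, Fabp3, Herpud1, Insig2, Serpinb6c and Vldlr, and in 1 of the 25 divided lower, Lor. In the Atf4 list, which is made up largely of known Atf4 targets, it was found in 7 of 18. CACGTG occurred in 8.09% of all genes, in 8 of the 52 and in 3 of the 25. Ciart holds 3 copies, and Cops8 and Arl3 also hold the motif. Atf4 itself, Sox21 and Gstm2 were not among the genes with a match to either motif. Only 52 of the 61 genes divided higher had an entry, so a missing match need not mean that the letters are absent. Of the genes printed here, Ciart was divided by both of its probes, Chac1 by its 1 probe, and Herpud1 and Vldlr by 1 probe each with the others between 0.80 and 0.97.

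The glutathione and Nrf2 list had 14 of 18 measured genes with higher values in lines 4 to 6 and a median of 0.20. Only Gpx2 was divided, with 10.27, 10.62 and 10.40 in lines 4 to 6, against 8.83, 7.81 and 8.34 in lines 1 to 3, with 8.73 and 9.07 in the NT lines. The transferases Gstm1 (0.82) and Gsta4 (0.37) and Nfe2l2, which encodes the transcription factor Nrf2 (0.59), did not overlap between the sets but stayed under 2-fold. Line 2 was lowest in the list's median deviation from the tNT mean, at -0.36, against 0.17, 0.05 and 0.09 in lines 4, 5 and 6 and 0.03 and -0.09 in lines 1 and 3. Of 6 hexosamine genes Uap1 was divided, its paralog Uap1l1 had 0.68, and Nagk, the kinase that salvages N-acetylglucosamine, had -0.45. Of 4 apolipoproteins Apoa2 was divided, and Apoe had 9.59, 9.82 and 9.96 in lines 4 to 6, against 9.08, 8.66 and 8.93 in lines 1 to 3, while the NT lines (9.88 and 9.96) lay with lines 4 to 6.

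Genes of cell state were not divided in either pluripotency list. Among naive genes Zfp42 had a log2 difference of -0.71, with 11.66, 11.12 and 11.51 in lines 4 to 6, against 12.22, 11.90 and 12.29 in lines 1 to 3. Tcl1, a cofactor of Akt kinase, had 0.80, and Sox2, Nanog, Klf4 and Esrrb had -0.03, 0.18, 0.19 and 0.30 by their brightest probes and overlapped between the sets. In the primed epiblast list 9 of 10 measured genes had lower values in lines 4 to 6, with a median of -0.38. The POU factor Pou3f1 had 7.87, 7.76 and 7.74 in lines 4 to 6, against 8.45, 9.38 and 8.44 in lines 1 to 3, with the NT lines in the range of lines 1 to 3, and the Nodal inhibitor Lefty2 and the keratin Krt18 had -0.59 and -0.50 without overlap. Dnmt3b, a DNA methyltransferase, had -0.61 with overlapping sets.

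Fibroblast and feeder markers had lower values in lines 4 to 6 in 11 of 13 measured genes of 17 with a probe, with a median of -0.23 and none divided. Their median deviation was -0.25, -0.08 and -0.14 in lines 4, 5 and 6, 0.06, 0.55 and -0.25 in lines 1, 2 and 3, and 0.23 and -0.05 in the NT lines, so lines 4 and 3 stood at the same level and line 2 above all others. Other lists varied in this. Line 2 was also the highest tNT line in the primed epiblast (0.41), endothelial and blood progenitor (0.16) and interferon (0.32) lists. In the trophoblast and primitive endoderm lists it was the lowest (-0.44 and -0.26). In the endothelial and blood progenitor list 2 of 8 measured genes, Robo4 and the factor Etv2, were divided lower, beside 0.37% of all tested genes. The list median was -0.13, with 6 genes lower and 2 higher, Gata2 (0.53) and Pecam1 (0.38). The other probes of Robo4 were not bright enough to be tested. Robo4 had 5.13, 5.63 and 5.64 in lines 4 to 6, against 6.67, 8.66 and 6.08 in lines 1 to 3, and Etv2 had 6.07, 6.62 and 6.98 in lines 4 to 6, against 7.20, 9.19 and 7.33 in lines 1 to 3. Line 2 was the highest in both, and without it the differences were -0.91 in place of -1.67 for Robo4 and -0.71 in place of -1.35 for Etv2, under the 2-fold rule. Their part in the other differences was not tested.

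Of the p53 targets 17 were measured, Pmaip1 was divided higher, and Plk2 (-0.66), Bbc3 (-0.50) and Ccng1 (-0.28) had lower values without overlap. The cell cycle inhibitor Cdkn1a had 0.16 with overlapping sets. Among 20 glycolysis and hypoxia genes Pgk1 was divided, at the edge of the rule (1.01), the median was 0.08 and Ndrg1 had -0.67. Among 8 primitive endoderm genes the factor Sox7 was divided higher at 1.13, with a median of -0.01. The circadian clock list was drawn up after the values were seen and had 16 measured genes with a median of 0.11. Ciart and Noct were divided, Noct by its brighter probe only, with -0.45 by its other tested probe. Clock (0.46) and Timeless (0.28) had higher values without overlap, and Per1, Per2, Dbp, Nr1d1 and Nr1d2 lay between -0.21 and 0.22. Of the 29 lists drawn up earlier with at least 3 measured genes, 11 had a positive median.

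Lines 4 to 6 resembled each other more than lines 1 to 3 did, in the same values from which the sets were chosen. Within lines 4 to 6 a pair differed at least 2-fold for 18 (lines 5 and 6) or for 83 or 93 probes (pairs with line 4). Within lines 1 to 3 the counts were 113 (lines 1 and 3), and 304 and 447 (pairs with line 2). Between the sets the count ran from 147 to 653, with a median of 297, and for the pair of NT lines it was 21. Line 1 differed from lines 5 and 6 for 147 and 152 probes, fewer than the 304 by which it differed from line 2 of its own set. The second set is thus loose, and line 2 is its most distant member. Against the NT lines the count ran from 332 to 431 for lines 4 to 6 and from 219 to 434 for lines 1 to 3. Pearson correlations across probes, which are not independent replicates and share their array, were 0.988 to 0.993 within lines 4 to 6 and 0.974 to 0.987 within lines 1 to 3.

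**Figure D5:**
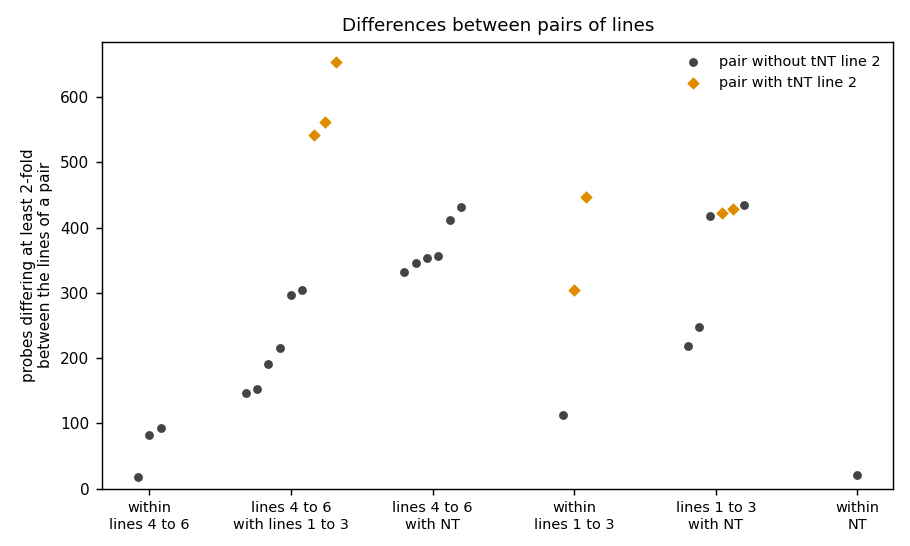
Number of probes that differ at least 2-fold between the lines of a pair (vertical axis, from 0), grouped by the sets the pair comes from, with diamonds for pairs that include tNT line 2. Pairs within lines 4 to 6 lie between 18 and 93, pairs between the sets run from 147 to 653, and the 3 highest of those include line 2.

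The same held probe by probe. The range within lines 4 to 6 was at least 2-fold for 150 probes and within lines 1 to 3 for 641, and the median SD was 0.14 and 0.20. Line 2 had the lowest value of lines 1 to 3 in 40 of the 74 probes divided higher, and line 1 the highest in 35. Within lines 4 to 6 the named probes with the largest SD were of the X-linked homeobox genes Rhox6 and Rhox9, Gm14685, the iron exporter Slc40a1, Car4 and Fam167a, and line 4 was the low one in each. Rhox6 had 5.14, 7.42 and 7.30 in lines 4 to 6, against 7.02, 7.10 and 5.60 in lines 1 to 3, so lines 4 and 3 were low together across the division. Within lines 1 to 3 they were of Gbp2 and Gbp2b, interferon-induced GTPases, Sox21, Robo4, the barrier protein gene Lor and Tex13b. Gbp2 had 5.16, 6.03 and 5.58 in lines 4 to 6, 7.04, 8.95 and 5.01 in lines 1 to 3, with 8.84 and 8.92 in the NT lines.

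Passage overlaps between the sets, which allows a comparison of lines at like passage. Line 5 (passage 18) minus the mean of lines 1 and 2 (passage 17 and 19) had a size of at least 1 for 99 of the 109 divided probes, and line 6 minus line 3, both at passage 25, for 82 of them. Their sign, and much of their size, is fixed by the rule, so these values describe the lines and do not test passage. Among the largest named probes the differences at like passage were 3.35 and 3.38 for Atf4, -2.93 and -3.23 for Psmd8 and -3.99 and -5.06 for 2210409E12Rik. At passage 25 other divided genes differed little, with -0.06 for Car4, -0.10 for Lor, -0.23 for Ccl7, 0.26 for Fabp3, -0.36 for Etv2 and -0.44 for Robo4, which are 6 of the 7 smallest and named after their values were seen. The remaining one is Myl3, whose probe was not above background in lines 1 to 3.

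Divided genes were spread over the genome. By the brightest probe of each gene, chromosome 14 held the highest share, 3.10% of its 258 tested genes counting both directions. Of its genes 6 were divided higher and 2 lower. Over all genes 0.661% were divided higher and 0.37% lower, and each of these shares counts 1 direction only. The 6 were Rgcc, Esd, Sox21, Dlgap5, Haus4 and Sox7, and the lower pair were Fam25c and Mmrn2. Chromosome 10 held none among 358 tested genes. Chromosome 7, with 619 tested genes, held 7 of the 28 lower genes and 3 divided higher. Only 2 pairs of neighbouring tested genes were both divided. These were Nppb (1.17) and Agtrap (1.23) on chromosome 4 and Lrrc2 (at least 0.59) and Epm2aip1 (at least 0.83) on chromosome 9, whose probes were above background on none of lines 1 to 3. Other divided genes lay close together without being adjacent, sharing a tested neighbour that was not divided. Such were Uap1 and Apoa2 (neighbour Sdhc, -0.05), and Myl3 and Lrrc2 (Tdgf1, -0.63). So were Fam25c and Mmrn2 (Sncg, -0.20), and Msi2 and 2210409E12Rik (Akap1, -0.45, without overlap). These genes were named after their values were seen. The nearest tested genes on each side of Cops8, Olig1, Atf4, Arl3, Psmd8 and 2210409E12Rik had log2 differences between -0.75 and 0.24, and none of them was divided. A chromosome number or strain for each line was not used here.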

How the data were processed

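Total RNA of each line was hybridised as biotin-labelled cRNA to an Illumina bead array. The deposited table holds, per the file headers, linear bead intensities and, next to each, a detection p-value against the negative controls. A second deposited table holds the authors' processed values on a log2 scale, and the sorted values of its 8 columns differ by at most 0.0059. Its background step, and any centring beyond this, stay unknown. BeadStudio 3.2, lumi and RMA are the tools in the submitters' processing notes, which give them no role. No genome build for the probes is given in the sources used here.

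Intensities were background-corrected and quantile normalized over all 8 arrays with neqc of limma 3.58.1 (R 4.3.3), with an offset of 16, where detection p-values stand in for the negative controls, and are on the log2 scale. Values for a set are means over 3 lines. Counts and figures were made with Python 3.11.15, numpy 2.4.6, pandas 2.3.3 and matplotlib 3.10.9, and the counting was tested on simulated data. Platform annotation names 1 gene for 23978 probes, several for 0 and none for 1719. Symbols were updated through a RefSeq table of GRCm38.p6, where 23962 probes matched, and that table gave chromosomes and gene order.

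The members, gene lists and rules were chosen with earlier results of these data known. Named genes are the 12 largest differences in each direction, genes whose probes agree or disagree most, up to 4 per list, the 6 largest SDs within each set, genes fixed by name, and exceptions stated as chosen later. The alternatives were 5 other sets of values, detection filters, fold limits, the choice of probe, lines left out and passage. Probe sequences were not used here. The number of arrays limits the precision.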

Additional observations from a re-analysis of the deposited data

How the results depend on the processing

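No paired analysis was possible because the sets share no line numbers and no comparison was tested. The 109 divided probes (74 higher, 35 lower in lines 4 to 6) were 29 (24 and 5) with no background correction, 64 (47 and 17) with an offset of 50, 226 (138 and 88) with the authors' values, 541 (304 and 237) at 1.5-fold and 13 (10 and 3) at 4-fold. All 109 were among the 226, and the 29 and the 64 were all among the 109. Lines at passage 17 to 19 gave 202 (125 and 77) and those at passage 25 gave 305 (182 and 123), with fewer values to keep apart. Probes above background on all 6 arrays left 22 lower. Leaving out each line gave 102 to 180, with 69 to 122 higher and 33 to 62 lower. Of these, 85 to 105 were shared with the 109, the fewest without line 2. The 21 genes with several tested probes became 4 with no background correction, 12 with an offset of 50, 54 with the authors' values, 12 with detection on all 6 arrays, 33 with no filter and 20 to 40 without a line. The 4 with every probe divided became 0 with no background correction and 4 to 9 without a line. The 7 with opposite signs became 1 with no background correction, 15 with the authors' values, 4 with detection on all 6 arrays and 14 with no filter. The NT lines were nearer lines 1 to 3 in 61.9% of divided probes with the authors' values and in 65.6% to 86.2% without a line. Normalizing the 6 tNT arrays alone and centring arrays on the median each kept 107 of the 109. The log2 differences of 69 named probes stayed within their spread in 771 of 897 alternative values and moved in 126. None of a divided probe changed sign. For lines left out and for passage the rule fixes that sign, so only the other sets of values could have changed it. The medians of 30 lists stayed within their spread in 223 of 240, and 29 had another sign, mostly near 0. The cause of these shifts was not tested. Differences against a set near background are the least certain, and the number of arrays limits the precision.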

Other observations

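Other divided genes fall outside the lists, and the following 5, higher in lines 4 to 6, were named after their values were seen. Csrnp1, an immediate early nuclear protein, had 10.06, 10.37 and 10.26 in lines 4 to 6, against 8.54, 9.17 and 8.58 in lines 1 to 3, with 8.62 and 8.99 in the NT lines. Gpt2, the mitochondrial alanine transaminase, had 8.34, 8.61 and 8.61 in lines 4 to 6, against 7.49, 6.88 and 7.32 in lines 1 to 3, with 7.91 and 8.14 in the NT lines, which lay between the sets. Fabp3, a fatty acid binding protein, and Ak4, a mitochondrial adenylate kinase, were bright in both sets. Fabp3 had 13.36, 13.12 and 13.06 in lines 4 to 6, against 12.54, 10.85 and 12.80 in lines 1 to 3, and Ak4 had 11.38, 11.09 and 11.02 in lines 4 to 6, against 10.88, 8.91 and 10.37 in lines 1 to 3, so the differences of both (1.11 each) rest largely on line 2. Thap4, by contrast, had 7.88, 7.74 and 7.84 in lines 4 to 6, against 6.45, 6.36 and 6.34 in lines 1 to 3, with both sets tight and the NT lines at 6.18 and 6.47.

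Among genes lower in lines 4 to 6, Ttc27 had 7.87, 7.76 and 7.77 there, against 8.94, 9.22 and 8.74 in lines 1 to 3, with 9.10 and 9.10 in the NT lines, and Selenoi, which makes phosphatidylethanolamine, had 6.58, 6.46 and 6.34, against 7.62, 8.05 and 7.69 in lines 1 to 3, with 7.80 and 7.59 in the NT lines. Both NT values lay within or near the range of lines 1 to 3 for these genes, which were also named after their values were seen. Uty, a gene of the Y chromosome, had 5.16, 5.27 and 5.47 in lines 4 to 6, against 5.58, 5.81 and 5.67 in lines 1 to 3, near background throughout, and Xist was not above background on any of the 8 arrays.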
